A study of Mus musculus with 4 samples.

Results

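The interleukin-6 family signalling genes described here are 10 genes chosen by name, out of 32285 features in the count tables. They comprise 5 ligands (Il6, Lif, Osm, Il11 and Cntf), 2 receptor chains (Osmr and Il11ra1), the shared receptor chain Il6st, the transcription factor Stat3 and its feedback inhibitor Socs3. Transcripts were counted on spatial capture areas (Visium), on which each spot collects RNA from a small circle of tissue that can hold several cells. Mouse cortex was examined at rest and 2, 7 and 21 days post injury (dpi) after photothrombotic (PT) injury, in which a light-activated dye clots cortical vessels. Each of 4 capture areas held 2 tissue slices, 1 slice per mouse.

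The 8 slices were 1 wild-type (WT) slice at rest, 1 WT slice at 2 dpi, 2 WT slices at 7 dpi, 2 WT slices at 21 dpi and 2 slices at 21 dpi from mice carrying Cthrc1(creER) and R26(DTA). These alleles place an inducible Cre recombinase under Cthrc1, a gene of activated fibroblasts, to drive a toxin in the cells that express it. The submitters could not detect the deletion and set these mice aside, so they are called deleter slices here and treated as a separate group. The methods give only a range of ages, in weeks, for mice of both sexes in the study as a whole, and no age for a single slice. The labels do not say which piece of the first area was at rest; by the rule for choosing the slices, the piece of 1017 spots was taken as rest and that of 1726 spots as 2 dpi. Summed neutrophil markers were 0.0165 unique molecular identifiers (UMIs, each marking 1 captured transcript) per 10000 in the first piece and 1.45 in the second.

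Slices held 11332780 to 23677298 UMIs, and the median spot held 12447 to 16158 UMIs in 7 slices but 2633.5 at 2 dpi, where 375 spots held under 1000. Neuron and oligodendrocyte markers were found in every slice. Rest and 2 dpi shared a capture area, and the 7 dpi, WT 21 dpi and deleter slices each had an area of their own, so time and genotype cannot be told apart from the area in comparisons among these groups. The 7 dpi slices held 1281 to 1597 UMIs of Xist, a transcript of female cells, and the WT 21 dpi slices 1 to 4, so sex also differed between these times. The deleter pair was mixed, with 1033 and 19 UMIs of Xist. Replicates are single slices of separate mice. In tests between groups of slices, p-values measure the spread between slices. In tests between regions of the same slices, they measure how the difference between regions varied from slice to slice. Each fit took its estimate of the spread from all slices at 7 and 21 dpi, with the deleter slices included.

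Interleukin-6 family cytokines are released by glia, immune cells and stromal cells in injured tissue. Each signals through a receptor complex that holds the shared chain gp130, encoded by Il6st. The complex activates JAK kinases, which phosphorylate STAT3, and STAT3 induces Socs3, whose product blocks further signalling at the receptor. In injured brain the pathway is known for its part in astrocyte reactivity and in the recruitment of leukocytes.

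Ligand transcripts were scarce in every slice, and 3 of the 5 (Il6, Lif and Il11) had their highest level at 2 dpi. Il11, a ligand known from fibrosis and stromal cells, had 9 UMIs at rest and 157 at 2 dpi. It then fell to between 9 and 15 UMIs in each of the 6 later slices. Per 10000 UMIs this was 0.0055 at rest, 0.12 at 2 dpi and 0.00465 to 0.00999 later, so the 2 dpi slice stood above all others and the later slices overlapped with rest in their counting intervals. Il6, the founding member of the family, had 1 UMI at rest, 21 at 2 dpi and 0 to 6 in each later slice. Lif, which acts on neurons and glia through Il6st, had 3 UMIs at rest, 20 at 2 dpi and 2 to 10 later. Osm, a product of macrophages and neutrophils, had 0 UMIs at rest, where a count of 0 allows up to 0.00183 per 10000 (a floor of 3 UMIs; the exact Poisson upper limit is 0.00226). It had 12 UMIs at 2 dpi and 10 to 26 in each later slice, with its highest level, 0.0192 per 10000, in 7 dpi slice 2. Cntf, a ligand stored in astrocytes and Schwann cells, followed another course, with 0.0135 per 10000 at rest, 0.0772 at 2 dpi, 0.0852 and 0.0792 at 7 dpi, 0.187 and 0.139 at 21 dpi and 0.232 and 0.103 in the deleter slices. All intervals given for counts are exact 95% Poisson or binomial intervals and cover counting error only.

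**Figure D1:**
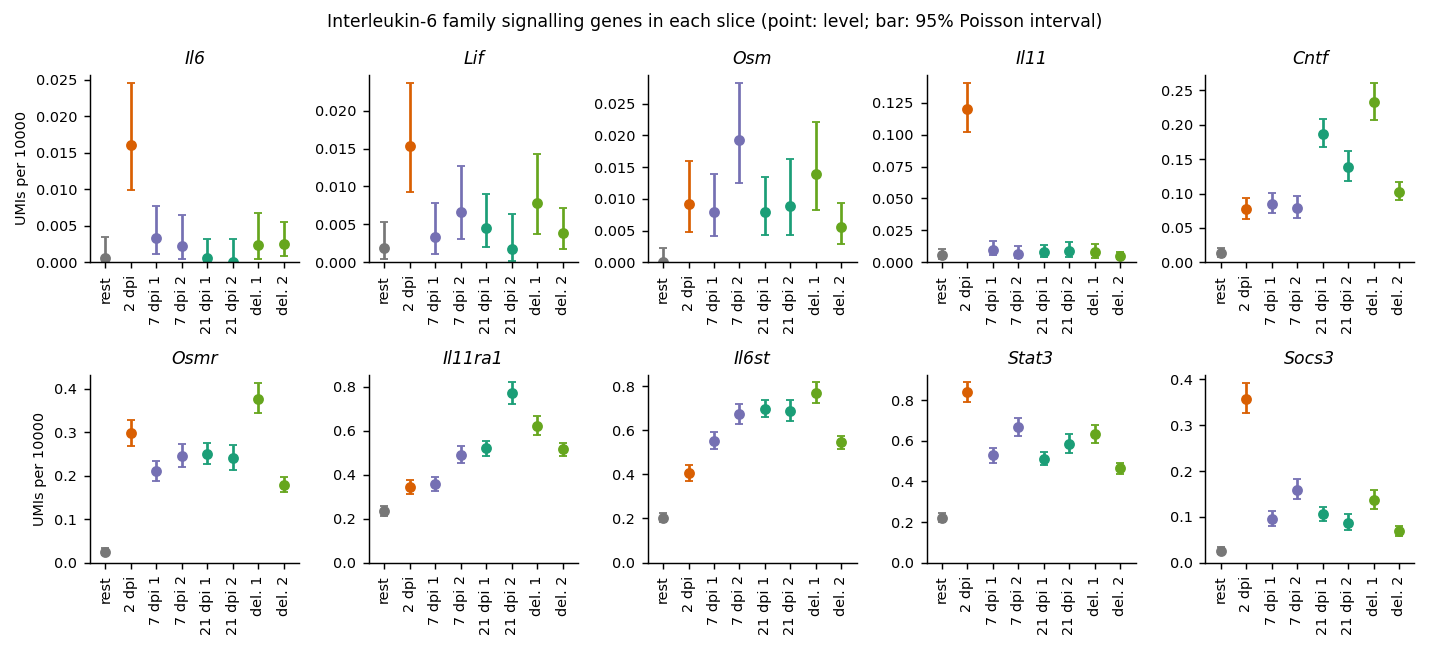
UMIs per 10000 (vertical axis, a separate scale for each gene) of the 10 genes in each of the 8 slices (horizontal axis; del. marks the deleter slices), with exact 95% Poisson intervals as bars. Il11 reached 0.12 at 2 dpi and at most 0.00999 in any other slice, while Cntf was highest in the slices at 21 dpi.

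The promoters of the ligands are shown because 4 of these genes were higher at 2 dpi than at rest. RefSeq gave 11 windows for 9 of the 10 genes (build GRCm38.p6), and Osm had no entry. The motif TGANTCA, bound by AP-1 factors and reading the same on both strands, was searched in the 250 bases before each start, where 6.75% of 32851 windows held it. It was present in at least 1 window of each of the 4 ligands with an entry. No window of Osmr, Il11ra1, Il6st, Stat3 or Socs3 held it, and these genes were also higher at 2 dpi than at rest. The stretches below end at the base before the start, except that of Lif, which ends where an annotated exon begins, and capitals mark the motif. They lie at chr5:30012864-30013113 (plus strand), chr11:4257318-4257556 (plus strand), chr7:4778142-4778391 (minus strand) and chr19:12765633-12765882 (minus strand).
Il6: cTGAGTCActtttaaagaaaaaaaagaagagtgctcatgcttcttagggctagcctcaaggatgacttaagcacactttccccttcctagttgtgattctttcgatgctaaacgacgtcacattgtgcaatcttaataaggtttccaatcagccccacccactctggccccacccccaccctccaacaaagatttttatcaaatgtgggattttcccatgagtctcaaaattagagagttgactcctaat
Lif: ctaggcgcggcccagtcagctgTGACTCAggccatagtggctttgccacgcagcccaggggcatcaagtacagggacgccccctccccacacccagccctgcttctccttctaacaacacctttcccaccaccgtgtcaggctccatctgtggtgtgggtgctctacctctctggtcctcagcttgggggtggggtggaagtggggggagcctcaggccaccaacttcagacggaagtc
Il11: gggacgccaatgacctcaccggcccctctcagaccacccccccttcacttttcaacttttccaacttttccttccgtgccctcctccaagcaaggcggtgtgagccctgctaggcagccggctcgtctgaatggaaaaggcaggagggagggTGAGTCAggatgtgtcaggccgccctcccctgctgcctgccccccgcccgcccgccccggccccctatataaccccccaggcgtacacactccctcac
Cntf: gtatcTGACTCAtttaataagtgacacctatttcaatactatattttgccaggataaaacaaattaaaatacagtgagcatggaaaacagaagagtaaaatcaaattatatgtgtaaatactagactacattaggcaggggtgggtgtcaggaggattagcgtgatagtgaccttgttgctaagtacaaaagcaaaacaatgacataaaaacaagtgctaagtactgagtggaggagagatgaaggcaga
The Il11 window is that of its internal start, and the window of its outer start held no match. Osm and Lif are neighbours on chromosome 11, at 4236420 to 4241026 and 4257557 to 4272514 on the plus strand. The motif TTCNNNGAA, the site form bound by STAT factors, also reads the same on both strands and was found in 7.02% of all windows. Among the 9 genes with a window it was found in 1, Socs3, beginning 154 bases before the start. This start is an internal one, so the site lies inside the annotated gene, at 117966079 to 117970047 on the minus strand. The site with 10 bases on each side lies at chr11:117969502-117969530 (minus strand), with the motif in capitals.
Socs3: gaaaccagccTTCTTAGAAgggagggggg
These matches describe the letters of the windows and are not evidence of binding.

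At 2 dpi the receptor and signalling genes were also higher than at rest. Osmr, the receptor chain for Osm, had 40 UMIs at rest and 390 at 2 dpi, or 0.0245 and 0.298 per 10000. Socs3 had 42 and 468 UMIs, or 0.0257 and 0.357 per 10000. The ratio of the slices was 12.2 for Osmr (95% interval 8.78 to 17.3) and 13.9 for Socs3 (10.1 to 19.6). Stat3 was 3.79-fold higher (3.37 to 4.28), Il6st 1.99-fold (1.73 to 2.29) and Il11ra1, the receptor chain for Il11, 1.48-fold (1.29 to 1.7). Among the ligands, the ratio was 21.8 for Il11 (11.2 to 48.6), 26.2 for Il6 (4.22 to 1085), 8.33 for Lif (2.47 to 43.8) and 5.74 for Cntf (3.59 to 9.56). Of the 9 genes with at least 20 UMIs in the 2 slices, 7 were at least 2-fold higher at 2 dpi, against 15.1% of 15197 genes, and 0 were lower. Il6, Lif and Il11 reached 20 UMIs only through the 2 dpi slice, so their place among the 7 follows in part from this minimum. With 1 slice per condition there was no test, and condition cannot be told apart from slice, although both slices shared a capture area. Summed markers differed between the same slices, with 15.9 astrocyte UMIs per 10000 at 2 dpi and 6.04 at rest, 6.73 and 1.86 for macrophages and microglia, and 24 and 45.9 for neurons, and their part in these ratios was not tested. In whole slices, more cells of a type and more RNA per cell cannot be told apart.

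Per 10000 UMIs, Il11 at 2 dpi was highest along the rim of the RNA-poor tissue. The 375 spots with under 1000 UMIs held 1 Il11 UMI, or 0.0422 per 10000. The 574 spots 1 or 2 steps away held 91 UMIs, or 0.698 per 10000 (0.562 to 0.857), and the 244 spots 3 to 5 steps away held 58, or 0.214 per 10000. Beyond that the level dropped to 4 UMIs in 313 spots at 6 to 9 steps, or 0.00746 per 10000, and 3 UMIs in the 220 spots farther out. Il11 was detected in 65 spots, of which 46 held 1 UMI and 31 were RNA-poor spots or lay within 2 steps of them. Those regions held 375 and 574 of the 1726 spots of the slice, so spots with Il11 were not more frequent in the pooled regions. RNA-poor spots held 1 Il11 UMI, so all but 1 of the 31 lay 1 or 2 steps away. The median spot held 1643.5 UMIs at 1 or 2 steps and 14695 at 3 or more. The part of this depth in the frequencies was not tested. A single spot, 1 step from an RNA-poor spot, held 44 UMIs, or 28% of all Il11 in the slice, and the next highest spot held 10. Without that spot the level 1 or 2 steps from RNA-poor spots was 0.363 per 10000. This was 6.45 times (4.34 to 9.54) that of the spots 3 or more steps away, against 12.4 times with it. The spots 3 or more steps away include those from 6 steps outward, which held few Il11 UMIs. At 3 to 5 steps alone the level was 0.214 (0.162 to 0.277), nearer to 0.363, and this difference was not tested. The same spot held 11 of the 21 Il6 UMIs and 2 of the 20 Lif UMIs. Without it Il6 was 12.5-fold (1.78 to 543) and Il11 15.7-fold (7.98 to 35.2) higher than at rest.

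Osmr had another distribution in the same slice. Its level in RNA-poor spots was 0.127 per 10000, on 3 UMIs (95% interval 0.0261 to 0.37). It was 0.2 in spots 1 or 2 steps away, 0.295 at 3 to 5 steps, 0.341 at 6 to 9 steps and 0.282 beyond. It was lower at 1 or 2 steps (95% interval 0.13 to 0.292), where Il11 was highest, than at 6 to 9 steps (0.294 to 0.395). Socs3 ranged from 0.253 in RNA-poor spots, on 6 UMIs, to 0.428 at 3 to 5 steps, and its intervals overlapped over all 5 distances. Il6st varied little, between 0.373 and 0.431 over the same 5 distances, with overlapping intervals. Summed neutrophil markers were 4.68 per 10000 in RNA-poor spots, 5.07 at 1 or 2 steps and 0.977 at 3 or more. Ly6g, a defining neutrophil marker, was at 0 in RNA-poor spots and at 1 or 2 steps. In the same order, fibroblast markers were 0.801, 2.23 and 1.07, and macrophage and microglia markers 4.51, 9.01 and 6.52. Astrocyte markers were 6.2, 7.4 and 17.1. The part of these cell types in the distributions was not tested, and the median spot held 638 UMIs in the RNA-poor region, 1643.5 at 1 or 2 steps and 14695 farther out.

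**Figure D2:**
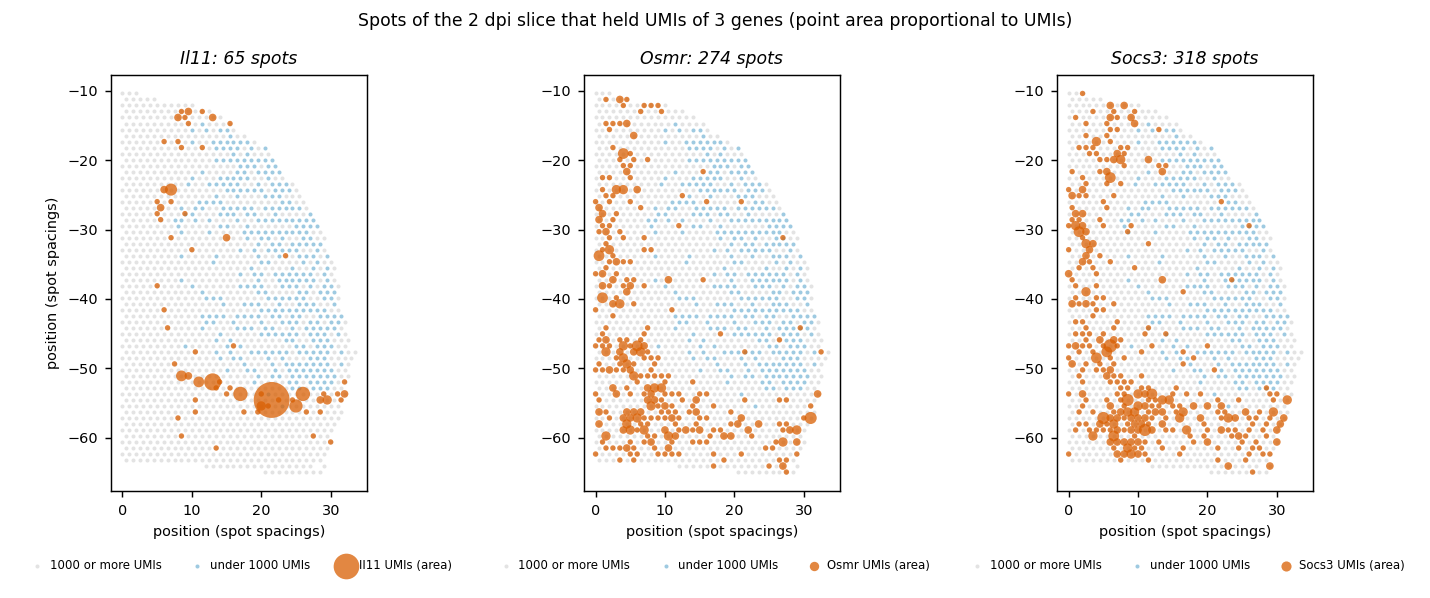
Spots of the 2 dpi slice at their array positions (both axes in spot spacings), with spots under 1000 UMIs in blue, other spots in grey and, in orange, spots with UMIs of Il11 (65 spots), Osmr (274) or Socs3 (318), drawn with area in proportion to the UMIs. Of the Il11 spots, 31 lie in the blue region or within 2 steps of it, and the largest point is the spot with 44 UMIs. The blue region and the spots 1 or 2 steps from it held 375 and 574 of the 1726 spots. Osmr and Socs3 spots lie mostly farther out, where spots hold more UMIs. The Socs3 level was 0.361 per 10000 at 1 or 2 steps and 0.359 at 3 or more.

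At 7 and 21 dpi the genes were placed relative to fibrotic tissue. A spot was called fibrotic if it held at least 5 UMIs of Col1a1, a fibrillar collagen gene of fibroblasts, per 10000. Spots 1 or 2 steps from a fibrotic spot on the hexagonal grid were called bordering, and spots 3 or more steps away were called away. There were 112 and 392 fibrotic spots at 7 dpi, 170 and 203 at 21 dpi and 193 and 274 in the deleter slices. UMIs were summed per slice and zone, and the 18 sums were fitted with edgeR's quasi-likelihood test with the slice as a block. Log2 fold changes are given with standard errors, and p-values were adjusted over 14503 genes by the Benjamini-Hochberg method. Of the 10 genes 7 entered this fit; Il6, Lif and Il11 were too rare. Osm entered only because 3 of its fibrotic sums passed the filter on low counts, so its difference follows in part from the filter.

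Fibrotic spots held more receptor, transducer and feedback transcripts than tissue away from them at both times. The receptor Osmr was 0.425 and 0.473 per 10000 in the fibrotic spots of the 7 dpi slices against 0.175 and 0.134 away. At 21 dpi it was 0.769 and 0.592 against 0.114 and 0.0609, and in the deleter slices 0.763 and 0.625 against 0.148 and 0.0644. Every fibrotic value was above every away value, although in 7 dpi slice 1 the highest level by distance, 0.546, lay 3 steps out. The log2 difference was 1.75 ± 0.30 at 7 dpi (edgeR adjusted p = 5.22e-04), 2.99 ± 0.30 at 21 dpi (4.47e-06) and 2.82 ± 0.29 in the deleter slices (5.18e-06).

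Il11ra1 was 0.614 and 0.835 per 10000 in fibrotic spots at 7 dpi and 0.332 and 0.28 away. At 21 dpi it was 1.56 and 1.86 against 0.36 and 0.356, and in the deleter slices 1.65 and 1.83 against 0.297 and 0.251. The away levels lay between 0.251 and 0.36 over the 6 slices, and the fibrotic levels at 21 dpi were all above those at 7 dpi. The log2 difference was 1.36 ± 0.19 at 7 dpi (edgeR adjusted p = 1.15e-04), 2.27 ± 0.17 at 21 dpi (6.85e-07) and 2.67 ± 0.17 in the deleter slices (1.88e-07). Il11ra1 lies at 41699989 to 41769474 on chromosome 4, where it overlaps Galt on the same strand, and near-identical copies of it exist in the genome, so its level is uncertain.

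Il6st, the chain on which all members of the family converge, was 0.803 and 1.09 per 10000 in fibrotic spots at 7 dpi and 0.493 and 0.469 away. At 21 dpi it was 1.87 and 1.34 against 0.467 and 0.349, and in the deleter slices 1.84 and 1.45 against 0.359 and 0.327. The fibrotic and away levels did not overlap in any group. In 7 dpi slice 1, however, the bordering level, 0.835, was above the fibrotic level, and the highest level by distance, 0.978, lay 1 step out. The log2 difference between fibrotic and away spots was 1.12 ± 0.23 at 7 dpi (edgeR adjusted p = 0.00156), 1.99 ± 0.22 at 21 dpi (1.01e-05) and 2.23 ± 0.22 in the deleter slices (4.36e-06). Stat3 was 0.779 and 0.965 against 0.489 and 0.49 at 7 dpi, 0.934 and 1.09 against 0.396 and 0.288 at 21 dpi, and 1.17 and 0.978 against 0.356 and 0.343 in the deleter slices. Its log2 difference was 0.94 ± 0.19 at 7 dpi (edgeR adjusted p = 0.00166), a call lost without 7 dpi slice 2, 1.58 ± 0.19 at 21 dpi (1.80e-05) and 1.59 ± 0.18 in the deleter slices (1.47e-05).

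Socs3, whose product closes the loop, differed more between the zones at 7 dpi than Osmr, Il11ra1, Il6st or Stat3 in its fitted value. Its level was 0.201 and 0.321 per 10000 in fibrotic spots at 7 dpi and 0.0665 and 0.0604 away. At 21 dpi it was 0.282 and 0.207 against 0.0642 and 0.0336, and in the deleter slices 0.249 and 0.185 against 0.0465 and 0.0331. The ranges of the 3 groups overlapped in fibrotic spots, and the log2 difference was 2.26 ± 0.32 at 7 dpi (edgeR adjusted p = 1.34e-04), 2.36 ± 0.32 at 21 dpi (4.36e-05) and 2.42 ± 0.31 in the deleter slices (3.23e-05).

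Of the ligands, Osm had 51 of its 93 UMIs in the 6 slices in fibrotic spots, which held 5.64% to 32.5% of all UMIs of a slice and 21.4% to 80% of its Osm. Its fibrotic level was 0.0354 and 0.0387 per 10000 at 7 dpi, 0.0134 and 0.028 at 21 dpi and 0.0389 and 0.0276 in the deleter slices, from 3 to 17 UMIs each. The 6 away levels were 0.0012 to 0.00795. Its log2 difference was 2.32 ± 0.70 at 7 dpi, 2.77 ± 0.81 at 21 dpi and 3.94 ± 0.74 in the deleter slices. Osm entered the fit only through its fibrotic sums, so its passing of the threshold is not evidence of a difference. At 7 and 21 dpi its passing also depended on single slices. Summed over the 5 ligands, fibrotic spots held 0.118 and 0.132 UMIs per 10000 at 7 dpi against 0.11 and 0.113 away. At 21 dpi the sums were 0.367 and 0.249 against 0.128 and 0.0657, and in the deleter slices 0.448 and 0.229 against 0.128 and 0.0596. Cntf made up most of these sums except in the fibrotic spots of 7 dpi slice 1, where it was 4 of 10 UMIs, and without it the fibrotic sums were 0.0331 to 0.0708 and the away sums 0.00801 to 0.0207. The fibrotic sums without Cntf rested mostly on Osm, with 51 UMIs over the 6 slices against 20 of Il11, 11 of Lif and 3 of Il6. They therefore do not show whether Il6, Lif and Il11 were higher in fibrotic spots.

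**Figure D3:**
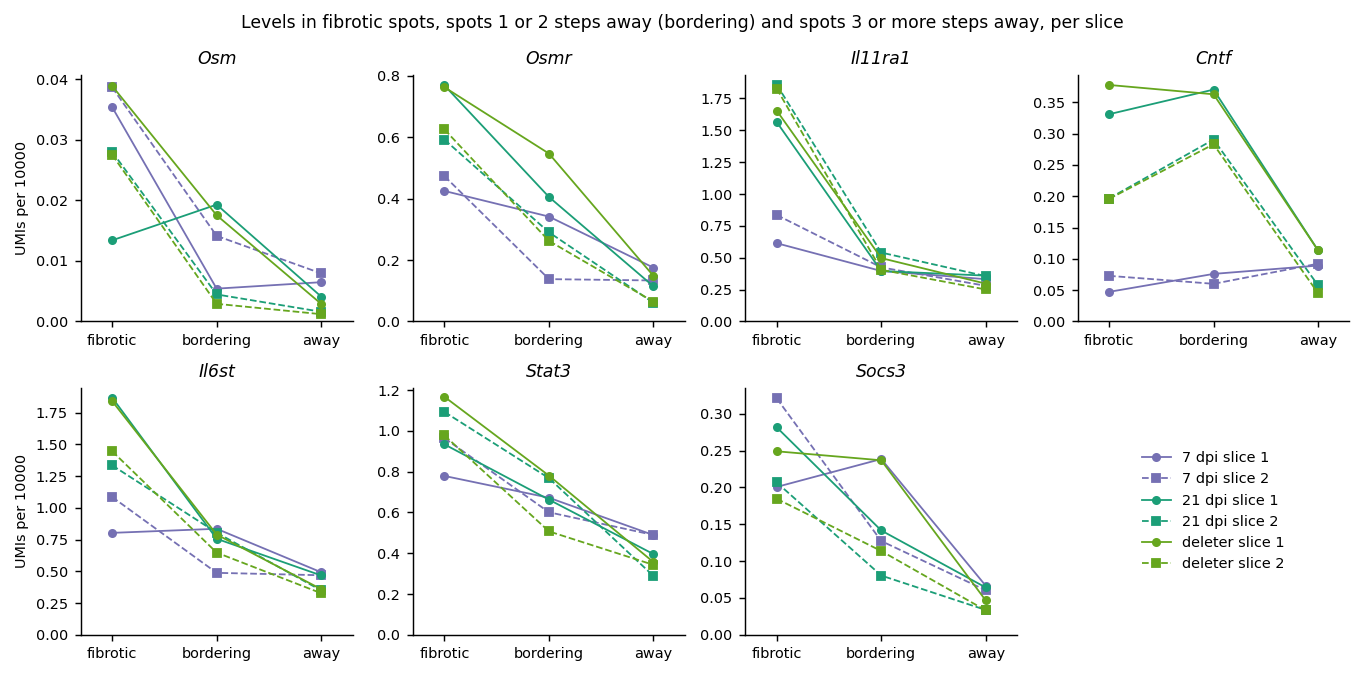
UMIs per 10000 (vertical axis, a separate scale for each gene) in fibrotic, bordering and away spots of the 6 slices at 7 and 21 dpi; each line is 1 slice. Osmr, Il11ra1, Il6st, Stat3 and Socs3 were higher in fibrotic than in away spots in all 6 slices, while Cntf was lower in fibrotic than in away spots in the 7 dpi slices and higher in the other 4. In both 7 dpi slices the counting intervals of Cntf in fibrotic and away spots overlapped.

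Cntf was not called in fibrotic against away spots at 7 dpi and was higher there at 21 dpi. At 7 dpi it was 0.0472 and 0.0728 per 10000 in fibrotic spots and 0.0892 and 0.0922 away. At 21 dpi it was 0.331 and 0.196 in fibrotic spots, 0.37 and 0.29 in bordering spots and 0.114 and 0.0577 away, and in the deleter slices 0.378 and 0.196, 0.363 and 0.283, and 0.113 and 0.0451. Both slices at 7 dpi ran one way and all 4 slices at 21 dpi the other. The fibrotic to away log2 difference was -0.36 ± 0.34 at 7 dpi (edgeR adjusted p = 0.40), 1.64 ± 0.26 at 21 dpi (1.47e-04) and 1.90 ± 0.25 in the deleter slices (3.61e-05). With fibrotic spots defined by at least 10 Col1a1 UMIs per 10000, the call at 21 dpi was lost. The difference between the times was -2.0 ± 0.42 for the WT slices and missed the threshold (edgeR adjusted p = 0.0705). Against the deleter slices it was -2.27 ± 0.41 (edgeR adjusted p = 0.0259), in a test added after the data were seen. There 2 of the 7 genes, Cntf and Il11ra1, passed, where 0.876% of all genes did. Both comparisons share the 7 dpi slices.

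By distance, Cntf was highest not in fibrotic spots but 1 step outside them in all 4 slices at 21 dpi. The levels at that step were 0.469, 0.317, 0.435 and 0.395 per 10000, in the order 21 dpi slices 1 and 2 and deleter slices 1 and 2, against 0.331, 0.196, 0.378 and 0.196 in fibrotic spots. The step rested on 43 to 86 UMIs per slice, and its 95% interval lay apart from that of fibrotic spots in deleter slice 2 but overlapped it in the other 3 slices. At 7 dpi it was highest 3 steps out in slice 1, at 0.207, and 4 steps out in slice 2, at 0.18, on 19 and 15 UMIs. Summed astrocyte markers moved the same way, at 10.9 and 11.4 per 10000 in fibrotic spots and 19.2 and 16.2 away at 7 dpi, and at 20.1 and 22.2 in fibrotic, 20.7 and 27.8 in bordering and 11.9 and 7.87 in away spots at 21 dpi. Over the 18 sums the correlation of Cntf with summed astrocyte markers was 0.84. It was 0.78 with T cell markers, 0.61 with neutrophil markers and 0.44 with fibroblast markers. With the other lists it ran from -0.27 (neuron) to 0.31 (macrophage and microglia). These sums share slices, so this is a description, and the part of astrocyte number in the Cntf levels was not tested. Cntf lies at 12763660 to 12765632 on chromosome 19 inside Zfp91, which runs on the same strand, so its reads cannot be fully separated from those of Zfp91.

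**Figure D4:**
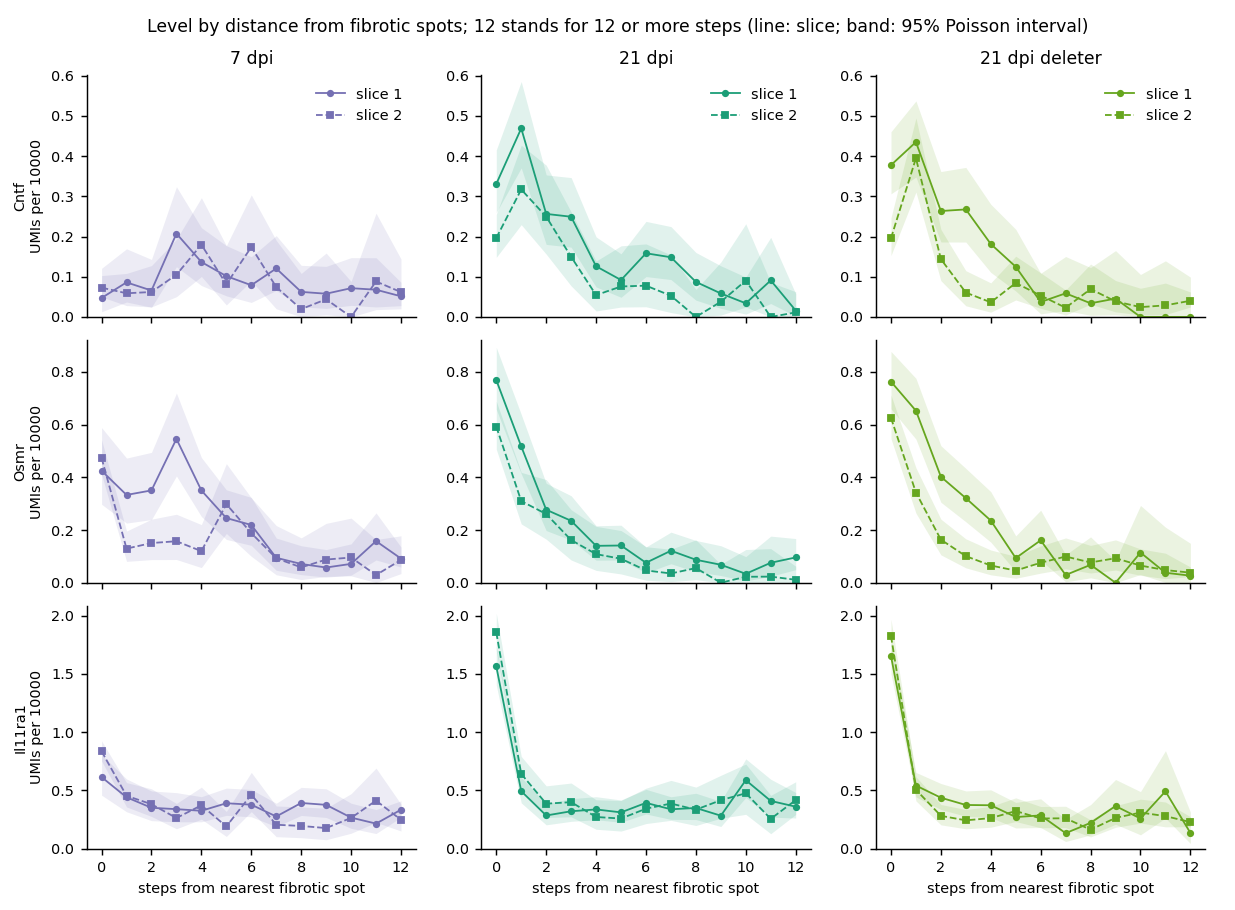
UMIs per 10000 (vertical axis) of Cntf, Osmr and Il11ra1 by steps from the nearest fibrotic spot (horizontal axis; 0 is fibrotic, 12 stands for 12 or more), with 1 line per slice and bands for exact 95% Poisson intervals. At 21 dpi Osmr and Il11ra1 were highest at step 0 in all 4 slices and Cntf at step 1.

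In bordering spots fewer of the genes passed at 7 dpi than at 21 dpi. Socs3 was the 1 gene of the 7 tested that passed at 7 dpi, where 12.1% of all genes were higher, with a log2 difference from away spots of 1.54 ± 0.32 (edgeR adjusted p = 0.00733), and the call was lost without 7 dpi slice 1. Its bordering levels at 7 dpi were 0.239 and 0.127 per 10000, and in slice 1 this was above the fibrotic level. At 21 dpi 5 of the 7 genes passed, where 9.02% of all genes were higher: Osmr (1.95 ± 0.31, edgeR adjusted p = 0.00216), Cntf (1.93 ± 0.25, adjusted p = 0.001), Stat3 (1.02 ± 0.19, adjusted p = 0.0051), Il6st (0.92 ± 0.23, adjusted p = 0.0199) and Socs3 (1.15 ± 0.35, adjusted p = 0.0456). The calls of Il6st, Stat3 and Socs3 were lost without 21 dpi slice 2, and that of Socs3 also without any other slice at 21 dpi. Il11ra1 did not pass, with bordering levels of 0.396 and 0.541 per 10000 at 21 dpi against 0.36 and 0.356 away and a log2 difference of 0.34 ± 0.18 (edgeR adjusted p = 0.24). Whether it differed from the other genes was not tested. The difference between the times in bordering spots passed the test for 0 of the 7 genes and for 0 of all 14503 (0%), with 3 of the 7 and 1344 of all at an unadjusted p under 0.05; for Cntf it was -2.32 ± 0.40 (edgeR adjusted p = 0.107).

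Counts of calls have to be read against the share of all genes called. In fibrotic against away spots, 6 of the 7 tested genes were higher at 7 dpi, where 24.2% of all genes were. At 21 dpi 7 were higher, where 28% of all genes were, and in the deleter slices 7, where 29.1% were. Each count includes Osm, which entered the fit only through its fibrotic sums. The median log2 difference over all genes was -0.02, -0.03 and -0.00108 in the same order. Fibrotic spots also had higher levels of all 5 fibroblast and all 5 macrophage and microglia markers, and lower levels of all 5 neuron markers, in each of the 3 groups. In the same order, 3, 4 and 5 of 5 endothelial markers were higher. So were 2, 3 and 3 of 4 tested neutrophil markers and 0, 4 and 4 of 4 tested T cell markers. Of 5 astrocyte markers, 0, 3 and 3 were higher and 1 was lower at 7 dpi. Of 5 oligodendrocyte markers, 4, 0 and 1 were lower. The fibroblast list holds Col1a1, which defines fibrotic spots, so its difference follows in part from the rule. Fibroblast markers summed to 33.2 to 118 per 10000 in fibrotic spots and 1.23 to 1.99 away, and macrophage and microglia markers to 34.7 to 53.5 and 4.22 to 16.9. The part of these cell types in the differences was not tested. The median fibrotic spot held 4923.5 UMIs in 7 dpi slice 1 against 16327.5 away, and 9206.5 to 13879 in the other slices.

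**Figure D5:**
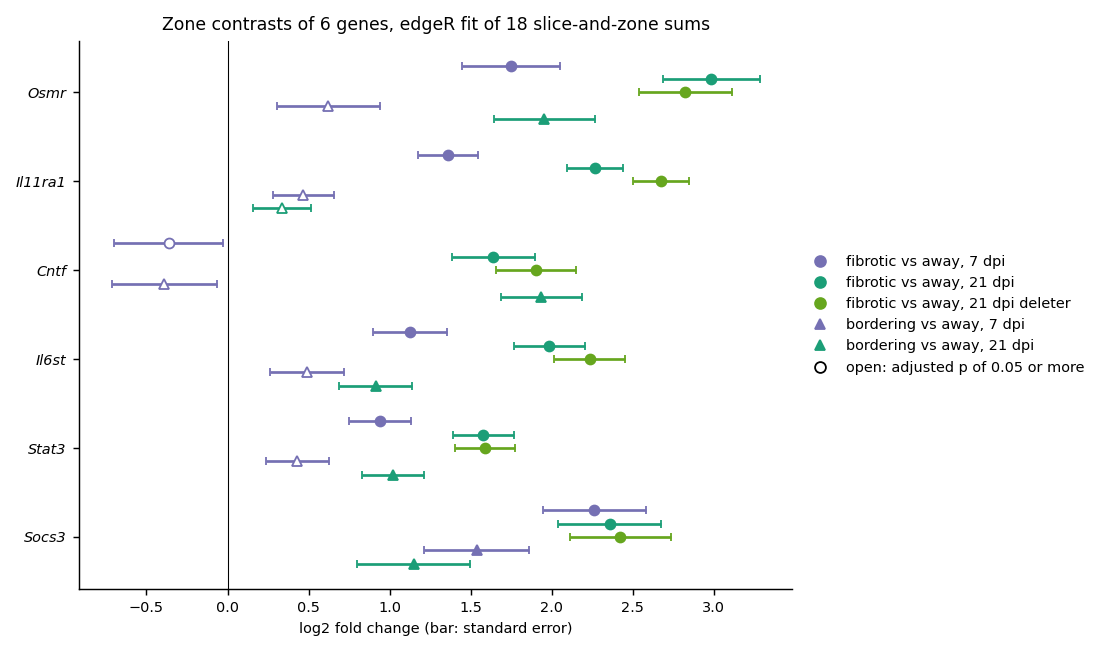
Log2 fold change (horizontal axis) of 6 genes between fibrotic or bordering spots and away spots, from the edgeR fit of 18 sums; bars are standard errors, and open symbols have an adjusted p of 0.05 or more. All fibrotic differences pass except that of Cntf at 7 dpi, and in bordering spots at 7 dpi Socs3 is the gene that passes.

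Comparing the times directly within fibrotic spots, 2 of 7 genes were lower at 7 dpi than in WT slices at 21 dpi, where 2.5% of 13289 genes were. Il11ra1 differed by -1.17 ± 0.17 on the log2 scale (edgeR adjusted p = 0.00472). Cntf differed by -1.92 ± 0.43 (edgeR adjusted p = 0.0295), a call lost without either 7 dpi slice and without 21 dpi slice 1. In the same comparison 2 of 5 fibroblast markers (Dcn and Lum; median of the list -0.60) and 3 of 5 astrocyte markers (Aqp4, Gfap and Slc1a3; median -0.84) were also lower at 7 dpi, and their part in these differences was not tested. The other values were -0.69 ± 0.21 for Il6st (edgeR adjusted p = 0.0965), -0.55 ± 0.19 for Osmr (0.147), -0.16 ± 0.17 for Stat3 (0.67), 0.25 ± 0.26 for Socs3 (0.67) and 0.83 ± 0.57 for Osm (0.49). The difference between the times in the fibrotic to away step passed for 0 of the 7 genes in the WT slices by edgeR and by DESeq2, against 0.331% of all genes by edgeR. At an unadjusted edgeR p under 0.05 were 5 of the 7 and 2068 of all 14503 genes.

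Over whole slices 0 of the 8 tested genes differed between 7 and 21 dpi, where 0.00629% of 15907 genes (1 gene) did. At an unadjusted edgeR p under 0.05 were 0 of the 8 and 2027 of all genes, and 0 of the 8 and 354 of all passed by DESeq2. The values nearest to the threshold were -0.94 ± 0.39 for Cntf (edgeR adjusted p = 0.39) and -0.56 ± 0.24 for Il11ra1 (0.41). Between the WT and deleter slices at 21 dpi, 0 of the 8 genes and 0 of all genes (0%) passed by edgeR, with 0 of the 8 and 376 of all at an unadjusted p under 0.05 and 0 of the 8 and 8 of all by DESeq2. The 8 differences lay between -0.26 for Osmr and 0.40 for Il11. The whole-slice levels of Il6st were 0.552 and 0.673 per 10000 at 7 dpi, 0.698 and 0.687 at 21 dpi and 0.77 and 0.545 in the deleter slices, so the spread within the deleter pair was wider than the gap between the times.

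The other genes of the pathway, 43 on the list, were read in the same fits. In fibrotic against away spots, 20 of the 37 tested were higher and 1 was lower at 7 dpi, where 24.2% of all genes were higher, and 26 were higher and 0 lower at 21 dpi, where 28% of all genes were. Among other receptors, Il6ra, the binding chain for interleukin-6, was higher by 1.93 ± 0.31 at 7 dpi (edgeR adjusted p = 3.09e-04) and by 2.27 ± 0.30 at 21 dpi (3.92e-05), whereas Cntfr, the binding chain for Cntf, was lower by -0.85 ± 0.26 at 7 dpi (0.0178) and had a value of -0.28 ± 0.22 at 21 dpi (0.30). Lifr, which pairs with Il6st for Lif and Cntf, had values of 0.12 ± 0.20 (0.65) and -0.01 ± 0.19 (0.98). Of the other ligands, Clcf1, a partner ligand at the Cntf receptor, was higher by 1.62 ± 0.49 at 7 dpi and 2.68 ± 0.44 at 21 dpi, and Ebi3, a subunit of interleukin-27, by 1.10 ± 0.39 and 1.23 ± 0.38, all with edgeR adjusted p between 2.05e-04 and 0.0365. Jak1 and Jak2, the kinases bound to the receptors, were not called in any of the 3 groups, while Ptpn6, a phosphatase of blood cells, was higher by 2.05 ± 0.20 at 7 dpi and 2.85 ± 0.21 at 21 dpi, and Tyk2 by 0.60 ± 0.23 and 1.04 ± 0.22.

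Of 4 other negative regulators tested, 2 were higher in fibrotic spots at 7 dpi and 2 at 21 dpi, and 0 were lower. The feedback genes Socs1 and Socs2 were higher with Socs3 at both times. The values were 2.3 ± 0.39 (7 dpi) and 2.36 ± 0.38 (21 dpi) for Socs1 and 1.38 ± 0.23 and 1.39 ± 0.21 for Socs2. The other genes of this list, Cish and Pias3, were not called at either time. Of the 5 other STAT genes, 4 were higher at 7 dpi and 5 at 21 dpi, led at 21 dpi by Stat5a at 2.46 ± 0.36 and Stat6 at 2.10 ± 0.25. Of the 16 genes known to respond to STAT3, 9 were higher at 7 dpi and 14 at 21 dpi, beside 24.2% and 28% of all genes, with medians of 1.14 and 2.3 over the list and -0.02 and -0.03 over all genes. Timp1, an inhibitor of matrix proteases, was higher by 3.92 ± 0.43 at 7 dpi (edgeR adjusted p = 2.86e-05) and 4.18 ± 0.45 at 21 dpi (7.96e-06). Icam1, a leukocyte adhesion molecule, was higher by 2.06 ± 0.28 and 3.45 ± 0.28, and Bcl3, a cofactor of NF-kappaB, by 2.09 ± 0.45 and 3.18 ± 0.43. Lcn2, an iron-binding acute-phase protein of reactive astrocytes and neutrophils, had -1.13 ± 0.62 at 7 dpi (edgeR adjusted p = 0.15) and was higher by 3.41 ± 0.52 at 21 dpi (1.20e-04). For Lcn2 and for Cebpd, a transcription factor of the acute-phase response, the difference between the times itself passed, at -4.54 ± 0.79 (edgeR adjusted p = 0.038) and -1.95 ± 0.33 (0.0311). In the fibrotic spots, Lcn2 was lower at 7 dpi than at 21 dpi by -5.31 ± 0.28 on the log2 scale (edgeR adjusted p = 1.46e-05). Gfap, the astrocyte filament gene, stands on both the STAT3 list and the astrocyte marker list.

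Among 14882 genes with at least 100 UMIs over the 18 sums, those most like each gene were ranked by the Pearson correlation of log2 normalized counts. For Osmr these were Mmp19 and Pdpn (both 0.98) and Fas, Gbp6 and Tnfaip2 (each 0.97). For Socs3 they were Ncf4, Cd14 and Oma1 (each 0.98) and Il6ra and Timp1 (each 0.97). For Stat3 they included Tapbp and H2-D1 (both 0.98) and Nfe2l2 and Igsf10 (each 0.97). For Il6st they were Ctdsp1, Blvrb, Adgre5, St6gal1 and Fam234a (each 0.98). Among the members themselves, Osmr, Il6st, Stat3 and Socs3 correlated with each other at 0.87 to 0.94, and Cntf with the other 5 at 0.42 to 0.65. Against the marker lists, Il11ra1 (0.95), Il6st (0.92) and Stat3 (0.89) were nearest to the fibroblast sum, which holds Col1a1, the gene that defines fibrotic spots. Socs3 was nearest to the macrophage and microglia sum (0.92) and Osmr to the T cell sum (0.88). The T cell sum held as few as 3 UMIs, in the bordering spots of 7 dpi slice 2. Other lists were nearly as high. Osmr had 0.86 with fibroblast and 0.83 with macrophage and microglia markers, and Stat3 had 0.88 with macrophage and microglia markers. Socs3 had 0.84 with endothelial and 0.81 with fibroblast markers. These values do not single out a cell type. The points are zones of 6 slices that share libraries and the same gradient from fibrotic to neuronal tissue, so these values are descriptions.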

How the data were processed

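The deposited tables held UMI counts per spot and gene, which the authors made with Space Ranger 2.0.0 on mm10, per the submitters' processing notes, and the values were used as raw counts without further normalization by the authors. Spots were split into slices as connected pieces of tissue, and UMIs were summed per slice or per slice and zone. Sums were tested with edgeR 4.0.16 in R 4.3.3 (quasi-likelihood test, TMM normalization, low-count filter, Benjamini-Hochberg adjustment, threshold 0.05), with the slice as a block in the zone fit of 18 sums. The block is the slice itself, from which the 3 zones of a mouse were taken. Levels, distances, exact intervals and correlations were computed in Python 3.11.15 with numpy 2.4.6, scipy 1.17.1 and pandas 2.3.3, and figures were drawn with matplotlib 3.10.9. The tests were also run on simulated counts, drawn with the same spread for every gene and no effect of the slice. This setting is unlike the sparse ligand counts, so it does not show how the tests perform on them. Slices held 11332780 to 23677298 UMIs, and 4 spots without UMIs were left out of the zones. Slices of an area were numbered by position, which pairs nothing across areas.

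The genes and lists were chosen with earlier results of these data known. The text names all 10 genes, at most 4 genes of each pathway list with the largest fold change among those that passed, and the 5 genes most like Osmr, Socs3, Stat3 and Il6st; other genes it names were chosen after their values were seen. For Stat3, 1 gene that the rule names is not reported here. Alternatives were DESeq2 1.42.0, no filter, no TMM, no slice block, other limits for fibrotic, bordering and RNA-poor spots, wild-type slices only, and leaving out each slice. The tests of the difference between times in bordering spots and against the deleter slices, and the values without single spots, were added after seeing the data. Promoter windows came from RefSeq on GRCm38.p6 and gene positions from GENCODE on GRCm38.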

Additional observations from a re-analysis of the deposited data

Results flagged for a closer look

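For 2 genes the step from away to fibrotic spots differed between 7 dpi and the deleter slices at 21 dpi in a test of the difference itself, made in the edgeR fit of 18 sums. That test was added after the data were seen. For Cntf the difference was -2.27 ± 0.41 on the log2 scale (edgeR adjusted p = 0.0259). The log2 ratio of fibrotic to away spots was -0.92 and -0.34 in the 7 dpi slices and 1.73 and 2.12 in the deleter slices. The 7 dpi ratios rested on 4 and 32 UMIs in fibrotic spots, with counting intervals that overlapped those of away spots. For Il11ra1 the difference was -1.31 ± 0.25 (edgeR adjusted p = 0.0303), with ratios of 0.89 and 1.58 against 2.48 and 2.86. Against the wild-type slices at 21 dpi, with ratios of 1.54 and 1.77 for Cntf and 2.12 and 2.38 for Il11ra1, neither difference passed (adjusted p = 0.0705 and 0.142 by edgeR). Time, genotype and capture area cannot be told apart in the comparison with the deleter slices.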

How the results depend on the processing

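Of 929 alternative values for 65 results on single genes, 863 kept direction and side of the threshold, 21 lost the call, 15 gained one and 30 changed sign. Of the 28 called results, 19 stayed called under every alternative and 0 changed sign. The cause of the changes was not tested. With 2 slices per group, 4 capture areas and few ligand UMIs, small differences were not detectable at this depth, and Il6 and Lif could not be tested.

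By DESeq2, the number of genes called was 354 between 7 and 21 dpi in whole slices (1 by edgeR), 8 between wild-type and deleter slices (0 by edgeR) and 213 for the difference between the times in the fibrotic step (48 by edgeR). With no filter these were 436, 1 and 905, and 1317 genes were called between the times in fibrotic spots against 583. The difference between the times called 87 genes with no TMM, 0 with no replicate block, 9 with at least 10 Col1a1 UMIs, 300 with at least 2 fibrotic neighbours and 13 with wild-type slices only, where whole slices called 6. Bordering spots called 1605 genes at 7 dpi (2746 with the block) and 913 at 21 dpi (2028 with it) with no replicate block, and at 21 dpi 1302 with bordering set at 1 to 3 steps and 3046 with at least 10 Col1a1 UMIs. Without the slice block, the calls of Il6st and Socs3 in bordering spots at 21 dpi were lost. The ratio of Il11 near and far from RNA-poor spots was 50.6 with a limit of 2000 UMIs and 6.45 without the spot with most Il11.

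Leaving out 1 slice at a time gave 0 to 6 genes between the times in whole slices, 0 to 2 between wild-type and deleter slices, 251 to 633 between the times in fibrotic spots, 0 to 227 for the difference between the times, 3317 to 6968 for fibrotic spots at 7 dpi, and 19 to 2910 and 364 to 1983 for bordering spots at 7 and 21 dpi. The 19 came without 7 dpi slice 1.

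Signs changed only for values that were not called. For wild-type against deleter slices, log2 values ranged over left-out slices from -0.60 to 0.59 for Cntf, -0.20 to 0.35 for Il11ra1, -0.24 to 0.27 for Il6st, -0.83 to 0.52 for Osm, -0.71 to 0.37 for Osmr, -0.60 to 0.42 for Socs3 and -0.30 to 0.16 for Stat3, and with no TMM Stat3 was 0.00551 and Il6st 0.0785. For 7 against 21 dpi in whole slices they ranged from -0.28 to 0.27 for Il11, -0.32 to 0.00978 for Il6st, -0.054 to 1.24 for Osm, -0.21 to 0.0498 for Osmr, -0.00775 to 0.77 for Socs3 and -0.0417 to 0.33 for Stat3, and Il11 was -5.34e-04 with no TMM. In fibrotic spots Socs3 ranged from -0.23 to 0.46. In bordering spots at 7 dpi Osm ranged from -0.14 to 0.82, and with bordering set at 1 to 3 steps Osm was -0.11 and Cntf 0.22. The difference between the times in the fibrotic step ranged from -1.62 to 0.61 for Osm and -0.68 to 0.12 for Socs3, and with at least 10 Col1a1 UMIs these were 1.23 and 0.13.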

Other observations

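The spot with most Il11 at 2 dpi held 8987 UMIs, among them 44 of Il11, 11 of Il6 and 2 of Lif. Its 6 neighbours, with 22109 UMIs, held 2 of Il11 and 0 of Il6 and Lif, and the 12 spots at 2 steps held 4 of Il11. Of 134 genes with at least 10 UMIs in the spot, Il6 and Il11 stood highest against all other spots of the slice, followed by Mmp3, a matrix protease, with 13 of its 80 UMIs there, or 282-fold (95% interval 143 to 516). Spp1, a secreted matrix protein of activated macrophages, had 138 UMIs, or 34.4-fold (28.8 to 40.7). The spot was chosen after its values were seen, and it is 1 spot of 1 slice.

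Il6 was found in 4 of the 65 spots with Il11 (6.15%) and in 0.301% of the other spots, and Socs3 in 32.3% and 17.9%. The spots with Il11 had a median of 6846 UMIs and the others 2392, and the part of this depth was not tested.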
